A study of Homo sapiens with 16 samples.

Results

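The LIM-only proteins LMO1, LMO2, LMO3 and LMO4 and the LIM domain-binding proteins LDB1 and LDB2 were examined, which is 6 of the 26410 genes measured. Their rows were found by Ensembl gene identifier, and the family was chosen by its normalized CPM in the 4 groups of libraries, so the values of the 6 genes are given as a description with no p. Where the fit over all genes passed its threshold for a member, nothing is read from it, and the share of all genes that did is given for each comparison. LMO proteins consist of little more than a pair of LIM zinc-finger domains and do not bind DNA. They bridge DNA-binding factors to LDB proteins, which dimerize and bring distant DNA sites together, and SSBP proteins stabilize the LDB proteins. LMO2 is needed for blood formation and is an oncogene of T-cell leukemia, LMO1 is an oncogene linked to susceptibility to neuroblastoma, LMO3 is also known from neuroblastoma, and LMO4 is known from epithelial and neural tissue.

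SH-SY5Y cells, a human neuroblastoma line, had been edited with CRISPR at TRPM2, an ion channel gene, and poly(A) RNA was sequenced in 16 libraries. The TRPM2 KO group held 2 single-cell clones made with a TRPM2 guide (KO11 and KO28), and the control group held 2 single-cell clones made with a scrambled guide (Scr13 and Scr16). All 4 clones had received the donor vector with GFP and puromycin markers and had been grown under puromycin selection, so the controls carried that treatment too. Each clone was kept for 24 h in regular medium (untreated) or with doxorubicin, a DNA-damaging chemotherapy drug, with 2 replicates each, which gives 4 libraries per group. The dose was 0.3 µM in the sample labels and the methods but 3 µM in the design text of the series. A group thus stood for 2 clones, and the replicates of a clone shared its history.

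The depth per library was 10481177 to 25086085 reads on genes (median 16037366.5). The values are normalized CPM, that is, the reads of a gene relative to the reads on all genes (CPM), scaled with a factor for each library. A count of 3 reads, taken as the floor, corresponded to 0.118 to 0.285 normalized CPM and covers counting error only. Without treatment, TRPM2 stood at 1.93, 2.23, 1.41 and 2.19 normalized CPM in KO and at 0.12, 0.12, 0 and 0 in Scr. With doxorubicin it stood at 1.22, 1.83, 1.37 and 0.658 in KO and at 0.059, 0.063, 1.33 and 0.39 in Scr. Without treatment, KO thus had more reads over the whole gene than Scr, while the treated groups overlapped (log2 fold change 0.69 ± 0.33, SE, not past the threshold). Since the edit was reported to remove the first amino acids and shift the frame of the rest, such a count cannot check it, and the groups are called by their labels. The p53 target CDKN1A was 5.91-fold higher after doxorubicin in Scr and 5.41-fold higher in KO, with no overlap between untreated and treated libraries.

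The summed level of 8 sympathoadrenal neuroblastoma markers lay between 3908 and 4920 normalized CPM in the 16 libraries. DBH, which makes noradrenaline, was the most abundant of them in the untreated groups (means of 1847 in KO and 1635 in Scr). With doxorubicin it was HAND2, a transcription factor of the sympathoadrenal lineage (1509 and 1732). TH, the first enzyme of catecholamine synthesis, was under 1 normalized CPM in each group mean. Markers of blood (CD34, SPI1) and of endothelium (KDR, TEK) had group means of at most 0.617 normalized CPM (CD34 in treated Scr, 0.411 without Scr16 doxorubicin replicate 1) and none was tested. Of 7 tested neuroblastoma markers, limma called 2 with doxorubicin in Scr (HAND2 higher, ISL1 lower) and 5 in KO (CHGB and HAND2 higher, CHGA, DBH and ISL1 lower), of which HAND2 held in 1 of 8 fits without a library (the one without KO28 doxorubicin replicate 1) and CHGA in 5 (not without KO11 untreated replicate 2 or KO11 doxorubicin replicate 1 or 2). Over all genes, 12.2% were called with doxorubicin in Scr and 19.6% in KO. In bulk RNA, fewer cells of a type and less RNA per cell cannot be told apart.

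The promoter windows of LMO4, LMO3 and LMO1 are shown because these are the genes whose levels differed between groups, and because the factors that LMO proteins bridge bind short motifs of known letters. The windows run from 250 bases before to 50 bases after a RefSeq transcript start (GRCh38.p14), written 5′ to 3′ on the strand of the gene, and 4 of the 6 genes had 9 windows in all. Capitals mark matches to CANNTG, the E-box read by basic helix-loop-helix (bHLH) factors, and to TAATTA, a core read by homeodomain factors. Both motifs read the same on either strand.
LMO4, chr1:87328630-87328929, plus strand: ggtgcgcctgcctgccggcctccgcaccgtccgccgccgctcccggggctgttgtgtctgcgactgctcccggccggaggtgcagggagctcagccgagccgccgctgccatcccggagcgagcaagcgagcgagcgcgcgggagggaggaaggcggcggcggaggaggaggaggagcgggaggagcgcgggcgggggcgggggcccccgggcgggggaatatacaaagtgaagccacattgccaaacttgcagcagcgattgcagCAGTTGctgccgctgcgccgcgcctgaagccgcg
LMO4, chr1:87331494-87331793, plus strand: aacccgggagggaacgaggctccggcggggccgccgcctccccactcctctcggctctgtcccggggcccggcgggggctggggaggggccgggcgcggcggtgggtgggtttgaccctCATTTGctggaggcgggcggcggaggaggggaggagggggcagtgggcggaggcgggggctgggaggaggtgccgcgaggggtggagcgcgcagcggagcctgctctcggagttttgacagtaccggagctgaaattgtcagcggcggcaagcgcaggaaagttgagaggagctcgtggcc
LMO3, chr12:16608165-16608464, minus strand: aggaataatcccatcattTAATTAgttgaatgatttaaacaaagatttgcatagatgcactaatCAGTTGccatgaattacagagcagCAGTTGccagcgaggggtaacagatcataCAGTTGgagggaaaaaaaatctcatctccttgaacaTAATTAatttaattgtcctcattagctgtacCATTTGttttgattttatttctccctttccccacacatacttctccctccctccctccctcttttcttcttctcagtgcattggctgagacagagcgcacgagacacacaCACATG
LMO1, chr11:8268738-8269037, minus strand: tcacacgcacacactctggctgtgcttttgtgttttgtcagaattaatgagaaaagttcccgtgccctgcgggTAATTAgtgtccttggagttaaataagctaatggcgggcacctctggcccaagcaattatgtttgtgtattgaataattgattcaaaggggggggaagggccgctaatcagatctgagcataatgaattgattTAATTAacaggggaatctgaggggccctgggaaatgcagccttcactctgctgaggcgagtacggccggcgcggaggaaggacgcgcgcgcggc

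Both LMO4 windows were rich in G and C (74% and 73.3%, against a median of 58.7% over all promoter windows), and each held 1 E-box. The LMO3 window shown, the most upstream of 5, had 40.0% G and C and held 5 E-boxes and 2 TAATTA matches, the most of the 5. The other LMO3 windows held 0, 4, 1 and 0 E-boxes and no TAATTA, with 46.0% to 52.0% G and C. The LMO1 window held 2 TAATTA matches and no E-box. Of all 35116 promoter windows of this length, 68.7% held CANNTG and 4.84% held TAATTA. The GATA motifs AGATAA and TGATAA, which share the letters GATAA and were searched on both strands, were in 10.3% and 7.53% of all windows and in none of the 9 windows of these genes. The single LDB1 window (chr10:102114953-102115252, minus strand) held none of the 4 motifs. A match describes the letters of the window and is no evidence of binding.

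LDB1, the hub of the complexes, was the most abundant of the 6 genes per length, and LMO1 was the most abundant LMO gene. Per kb of annotated exon, the untreated Scr libraries had means of 51.7 ± 1.32 CPM for LDB1, 30.4 ± 3.03 for LMO1, 2.38 ± 0.441 for LMO3, 0.558 ± 0.156 for LMO4, 0.261 ± 0.0775 for LDB2 and 0.0213 ± 0.0283 for LMO2 (SD, n = 4). No neighbours in that order overlapped. In the untreated libraries labelled TRPM2 KO, LMO4 stood above LMO3, at 5.31 ± 0.79 against 2.69 ± 0.208 CPM per kb (SD, n = 4), again without overlap. LMO4 also stood above LMO3 in the doxorubicin libraries labelled TRPM2 KO, at 2.6 against 0.888 CPM per kb. After doxorubicin in Scr, LMO4 fell to the level of LDB2 (0.195 and 0.211 CPM per kb), and the libraries of these 2 genes overlapped. The order of LMO1, LMO3, LMO4 and LDB1 in each group was the same per kb of coding sequence. On that length the mean of LMO4 in treated Scr was above that of LDB2, at 2.3 against 0.833 CPM per kb.

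**Figure D1:**
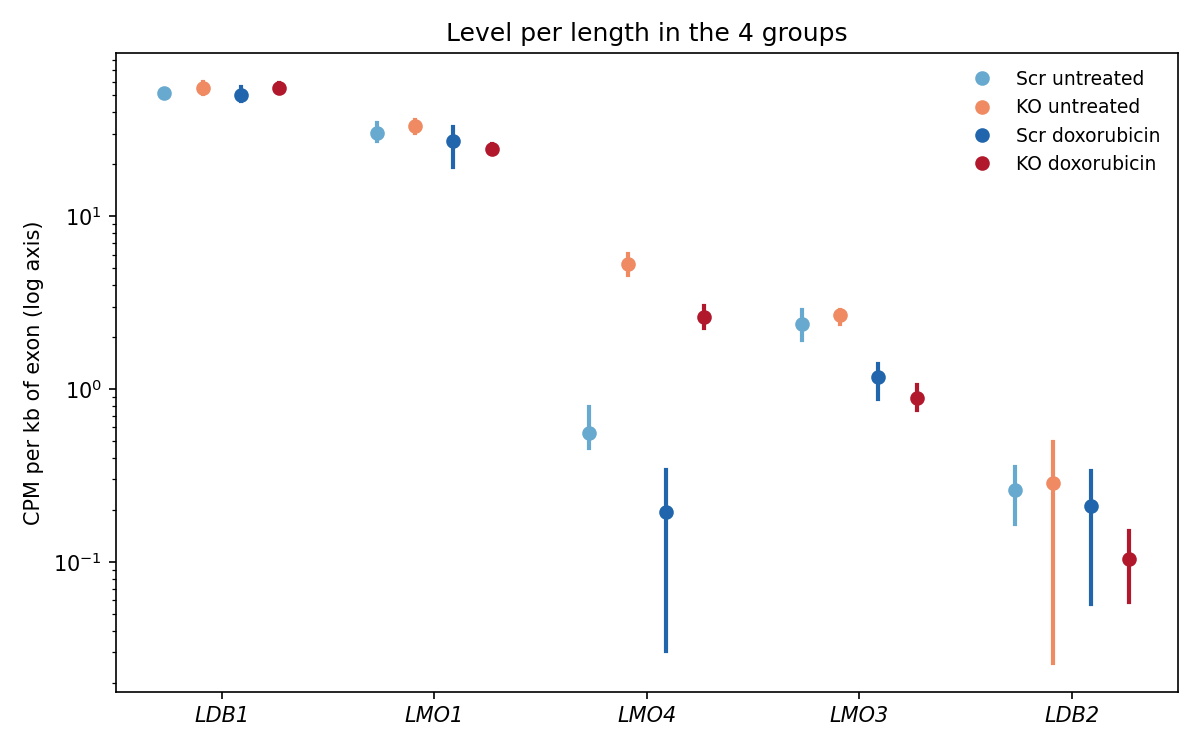
Level of 5 genes in CPM per kb of annotated exon (log axis) in the 4 groups; points are means of 4 libraries and lines run from the lowest to the highest library. LMO4 is above LMO3 in both KO groups and below it in both Scr groups, and overlaps LDB2 in treated Scr; LMO2, at 0 in most libraries, is not drawn.

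Among the reads of the 4 LMO genes taken per kb of exon, LMO1 held 91.1% ± 1.65 in untreated Scr and 80.5% ± 3.08 in untreated KO (SD, n = 4). The share of LMO4 was 1.65% ± 0.312 in untreated Scr and 13% ± 2.57 in untreated KO. After doxorubicin, the share of LMO4 was 0.622% ± 0.38 in Scr and 9.27% ± 0.548 in KO. Thus LMO1 had the largest share per kb of exon in every group, and the share of LMO4 did not overlap between the genotypes in either treatment. The sizes of the shares depended on the length used: in untreated KO the share of LMO1 was 53.1% per kb of coding length and 49.0% on plain reads, and that of LMO4 was 28.9% and 27%, 2 alternatives chosen after seeing the data.

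LMO4 (ENSG00000143013, chr1:87328468-87348923, plus strand, GRCh38) was the member that differed between the genotypes. Without treatment it stood at 34.3, 35.3, 27.1 and 26.9 normalized CPM in the libraries labelled TRPM2 KO (KO11 first, then KO28). In untreated Scr it stood at 2.87 and 2.88 in Scr13 and at 2.64 and 4.6 in Scr16. The groups did not overlap, and the lowest KO library was 5.85-fold above the highest Scr library. The means differed 9.52-fold, a log2 fold change of 2.92 ± 0.18 (SE). LMO4 was the 1 member of 5 tested whose fit passed the threshold, an adjusted p under 0.05 in limma over all genes, which 4.84% of 14364 genes passed and 2.3% passed as higher in KO. Non-overlapping groups with KO higher were found for 4.29% of genes.

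With doxorubicin, LMO4 stood at 17.5, 15.2, 13.2 and 14.5 normalized CPM in the libraries labelled TRPM2 KO. The treated Scr libraries had 0.178 and 0.82 in Scr13 and 2.00 and 1.56 in Scr16. The lowest of these rested on 3 reads, at the floor. The groups again did not overlap, with a 6.62-fold gap between the nearest libraries and a 13.3-fold ratio of means (log2 fold change 2.99 ± 0.27, SE). It was the 1 member of 4 tested past the threshold, against 8.69% of 14572 genes in either direction and 4.52% as higher in KO, and 6.76% of genes did not overlap with KO higher. Because 1 is added before the logarithm, the log2 value understates the fold of a gene this low in Scr, and edgeR and DESeq2 on recovered reads both gave 3.78. Without Scr13 the log2 fold change was 2.53, and without Scr16 it was 3.45.

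**Figure D2:**
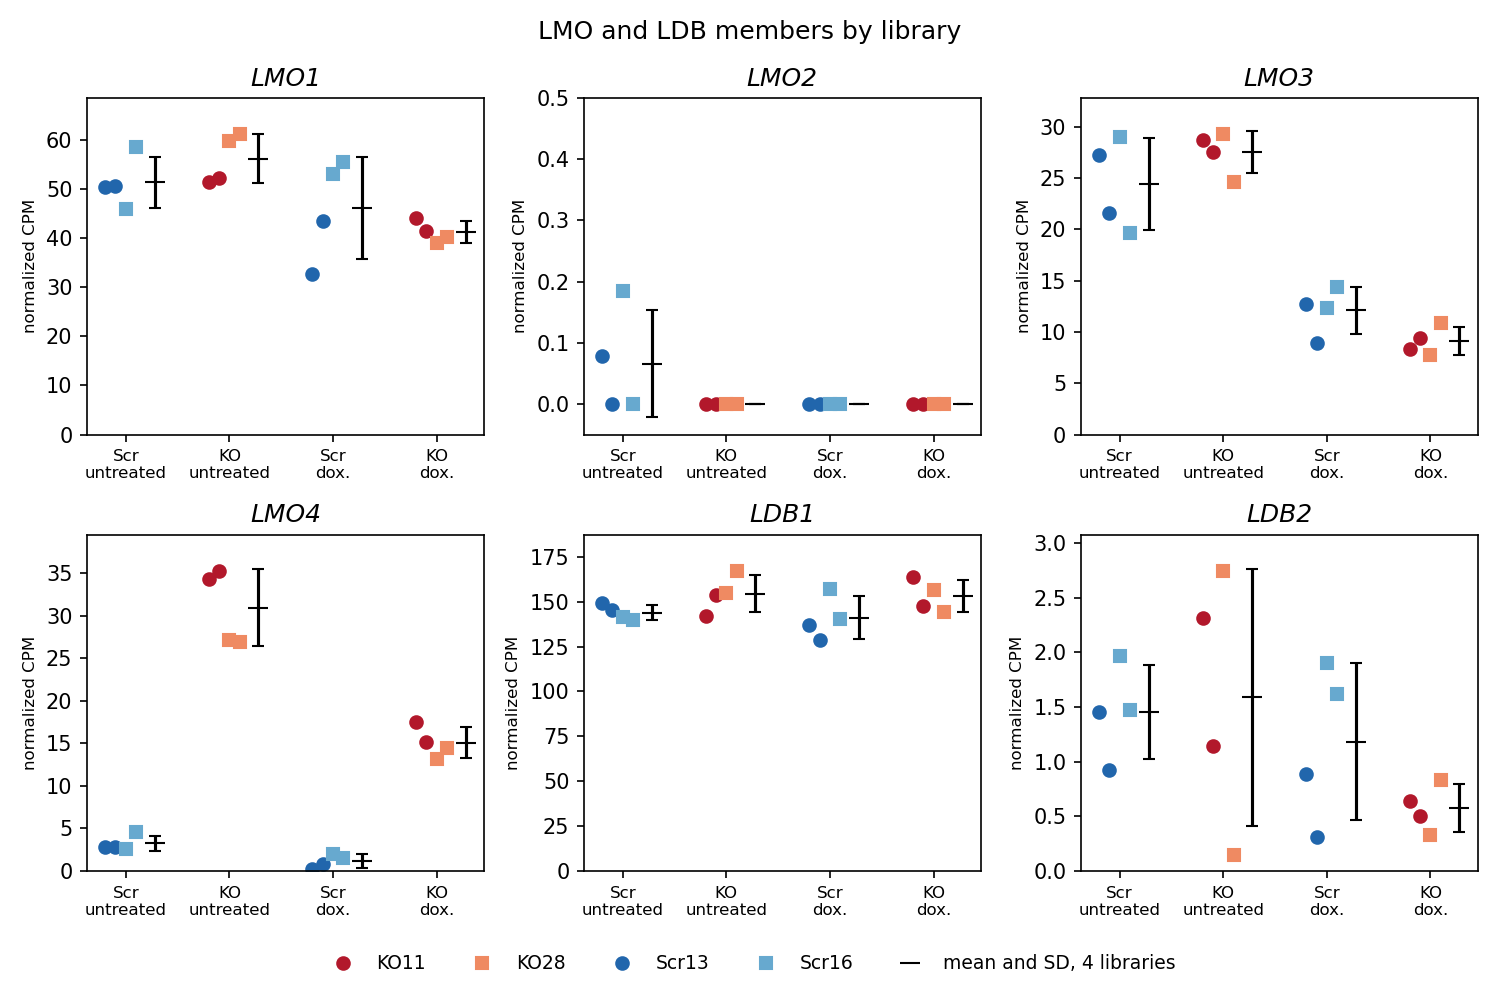
Normalized CPM of the 6 genes in each library (points, coloured by clone), with the mean and SD of 4 libraries beside each group. LMO4 is separated by genotype in both treatments, LMO3 is lower with doxorubicin in all 4 clones, and LDB1 varies little, while LMO2 reached at most 3 reads and LDB2 at most 42 reads in a library.

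Some fibroblast or mesenchymal genes moved with the same contrast. Of 8 measured genes of that list, 5 were called higher in untreated KO (COL1A1, COL3A1, DCN, LUM and PDGFRA), beside 2.3% of all genes. COL1A2 (log2 fold change 0.61), PDGFRB (0.073) and SNAI2 (-0.078) were not called. DESeq2 called the 5 without COL3A1, which was also not called without the filter on low values or without clone KO28 or Scr16. The COL1A1 call was lost without the filter or without clone KO28, and that of DCN without clone Scr13 or Scr16. The summed level of the 8 was 260 to 364 normalized CPM in KO and 100 to 268 in Scr. With doxorubicin, 4 of 7 tested were called higher in KO (COL1A1, COL3A1, DCN and LUM), beside 4.52% of all genes. The treated COL1A1 call was lost without the filter or without clone KO28. The sums were 264 to 369 in KO and 92.2 to 176 in Scr. COL3A1, a fibrillar collagen, was the most abundant in KO, at 175 and 55.4 normalized CPM in untreated KO and Scr and 189 and 35.1 with doxorubicin. Each Scr mean rested on 1 library: it was 27.4 without Scr13 untreated replicate 1 (139 normalized CPM) and 18.8 without Scr16 doxorubicin replicate 1 (83.9). In Scr the most abundant was PDGFRB, a growth factor receptor, at 75.2 untreated and 67.5 with doxorubicin. None of the 8 genes was at 0 in all 16 libraries. The untreated Scr13 library with the marker sum of 268, inside the KO range, had 2.87 normalized CPM of LMO4. The part of these genes in the LMO4 difference was not tested.

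**Figure D3:**
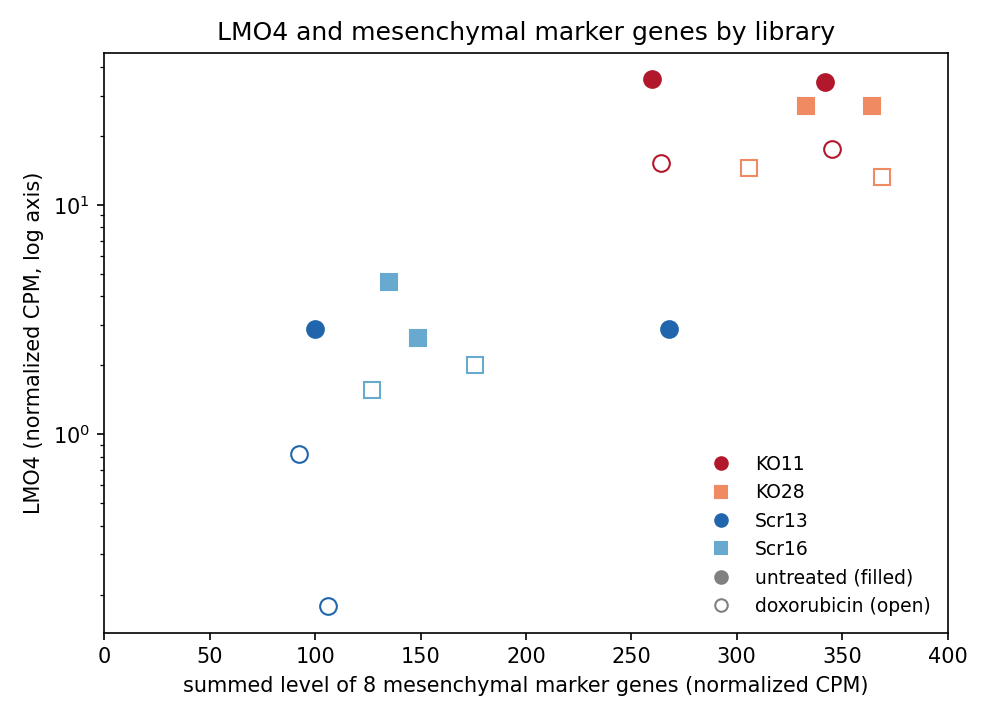
LMO4 (normalized CPM, log axis) against the summed level of 8 mesenchymal marker genes (normalized CPM) in each of the 16 libraries, with filled points untreated and open points treated. The KO libraries lie at 13.2 or more on the LMO4 axis and the Scr libraries at 4.6 or less, including the Scr13 library whose marker sum of 268 falls among the KO libraries.

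LMO4 was also lower with doxorubicin in both genotypes. In KO the means fell 2.05-fold (log2 fold change -0.98 ± 0.13, SE), with falls of 2.13-fold in KO11 and 1.95-fold in KO28. In Scr they fell 2.86-fold (log2 fold change -1.06 ± 0.29, SE), with falls of 5.71-fold in Scr13 and 2.05-fold in Scr16. Of the 2 treated Scr13 libraries behind the 5.71-fold, 1 was at the floor of 3 reads (0.178 normalized CPM, beside 0.82). Treated and untreated libraries did not overlap in any of the 4 clones. The difference between the 2 effects was 0.076 ± 0.30 on the log2 scale (SE), and 0.615 and 0.623 with edgeR and DESeq2, where no 1 is added. With doxorubicin, 12.2% of 14378 genes passed the threshold in Scr and 19.6% of 14513 in KO. LMO4 in Scr, past it, no longer was on leaving out Scr13 untreated replicate 1 (-0.99), Scr13 untreated replicate 2 (-0.99), Scr13 doxorubicin replicate 1 (-0.86) or Scr16 untreated replicate 2 (-1.0), and without clone Scr13 (-0.72).

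LMO3 (ENSG00000048540, chr12:16548373-16610594, minus strand), a partner of bHLH factors in neural cells, showed the strongest fall in KO among the tested members with doxorubicin. Untreated KO libraries had 28.7, 27.6, 29.3 and 24.7 normalized CPM, and treated KO libraries had 8.38, 9.38, 7.72 and 10.9. Untreated Scr libraries had 27.3, 21.7, 29.03 and 19.7, and treated Scr libraries had 12.8, 8.96, 12.4 and 14.4. All treated libraries were below all untreated libraries of their genotype. The fall was 3.03-fold in KO (log2 fold change -1.51 ± 0.15, SE) and 2.02-fold in Scr (-0.96 ± 0.17, SE). By clone it was 3.16-fold in KO11, 2.90-fold in KO28, 2.24-fold in Scr13 and 1.84-fold in Scr16. The genotypes overlapped in both treatments, with log2 fold changes of KO over Scr of 0.18 ± 0.13 untreated and -0.37 ± 0.19 treated (SE). Without clone Scr13 the call in Scr was lost, at -0.81. Of the mesenchymal genes, limma called 3 of 8 with doxorubicin in KO (DCN higher, COL1A2 and PDGFRA lower) and 0 of 5 in Scr. Over all genes, 19.6% were called in KO and 12.2% in Scr. The COL1A2 call was lost without any one of the KO11 libraries. In Scr, edgeR and DESeq2 also called 0 of these genes, and 1 (SNAI2) had an unadjusted p under 0.05. The part of the mesenchymal genes in the falls of LMO3 and LMO4 was not tested. MGST1, on the opposite strand over the same stretch, had a mean of 9.19 reads per library, and the use of strand in counting is not given in the sources used here.

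LMO1 (ENSG00000166407, chr11:8224304-8268716, minus strand) was lower with doxorubicin in 3 of the 4 clones. The untreated libraries had 51.4, 52.3, 59.8 and 61.1 normalized CPM in KO and 50.3, 50.7, 45.9 and 58.4 in Scr. The treated libraries had 44.1, 41.3, 38.9 and 40.2 in KO and 32.7, 43.5, 53.0 and 55.4 in Scr. In KO the groups did not overlap (log2 fold change -0.43 ± 0.10, SE), while in Scr they did (-0.18 ± 0.12, SE). The clones of Scr went apart: the treated mean of Scr13 was 1.32-fold lower than its untreated mean, and that of Scr16 was 1.03 times as high. The fall in KO was 1.52-fold in KO28 and 1.21-fold in KO11, and without KO28 it was no longer called, at -0.27. Between genotypes the libraries overlapped in both treatments. Without clone Scr13, LMO1 was called lower in treated KO than in Scr (-0.39), the single alternative of 19 that gave a call.

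LDB1 (ENSG00000198728, chr10:102107560-102120453, minus strand) stayed within a narrow range. Untreated it stood at 142, 154, 155 and 167 normalized CPM in KO and at 149, 145, 141 and 140 in Scr. With doxorubicin it stood at 164, 147, 156 and 145 in KO and at 137, 129, 157 and 140 in Scr. Groups overlapped in all 4 comparisons, and the largest of the 4 log2 fold changes was 0.12 ± 0.08 (SE), for KO over Scr with doxorubicin. The others were 0.10 ± 0.07 for KO over Scr untreated, -0.036 ± 0.07 for doxorubicin in Scr and -0.0090 ± 0.08 in KO.

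LDB2 (ENSG00000169744, chr4:16501541-16898809, minus strand), the second LDB gene, was near the lower limit of the data, with 0.146 to 2.75 normalized CPM over the 16 libraries. Its group means were 1.59 and 1.46 in untreated KO and Scr and 0.577 and 1.18 with doxorubicin. Replicates of KO28 without treatment differed from 2.75 to 0.146, and the groups overlapped in all 4 comparisons. LDB2 passed the filter on low values, at least 1 CPM in at least 4 libraries, in untreated KO against Scr (log2 fold change -0.046 ± 0.33, SE) for doxorubicin in Scr (-0.22 ± 0.29) and in the interaction (-0.37 ± 0.44), but not in treated KO against Scr or for doxorubicin in KO. LMO2 (ENSG00000135363, chr11:33858576-33892289, minus strand), the blood regulator, passed it in none. It had at most 3 reads in a library and was at 0 in 14 of 16, which at the depth of these 14 allows a level of up to 0.165 to 0.285 normalized CPM.

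**Figure D4:**
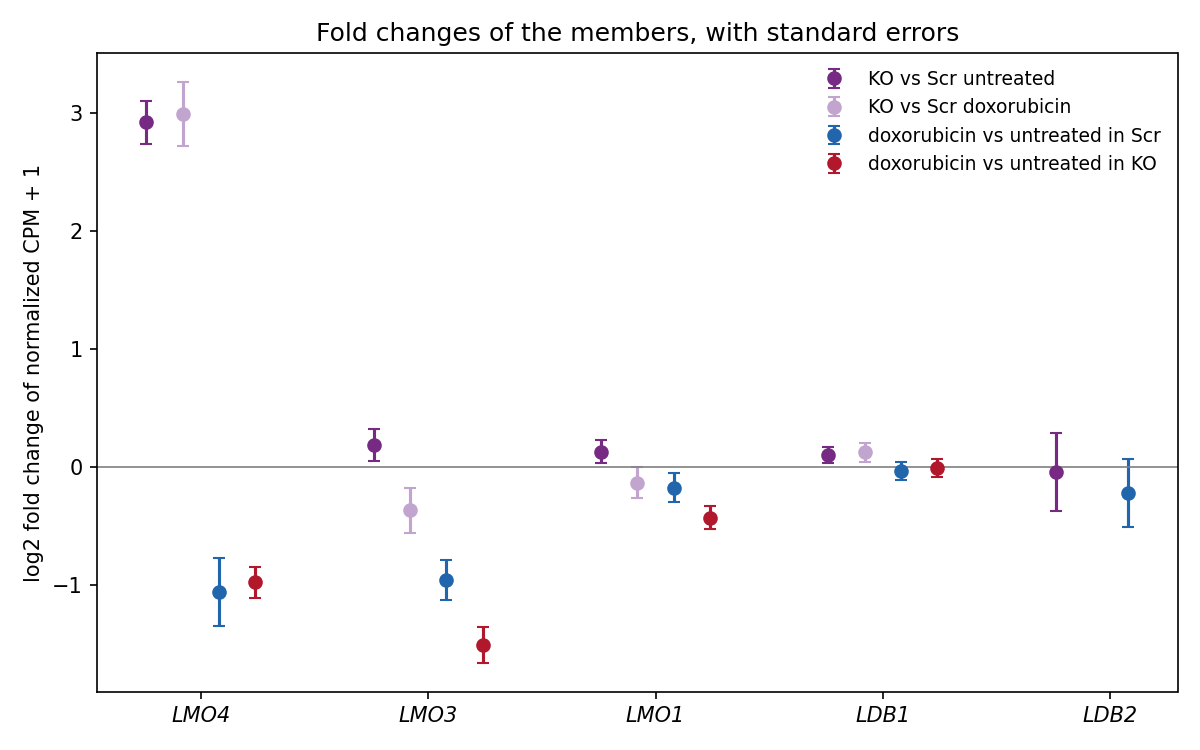
Log2 fold changes of normalized CPM + 1 with their standard errors for 5 genes in the 4 comparisons; a missing point means that the gene did not pass the filter on low values, and LMO2 passed in none. LMO4 stands near 3 for KO against Scr in both treatments, LMO3 and LMO4 lie below 0 for doxorubicin in both genotypes, and LDB1 lies within 0.12 of 0.

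With doxorubicin in Scr, 2 of 5 tested members (LMO3 and LMO4) were past the threshold, both lower, against 12.2% of 14378 genes in either direction and 5.24% as lower. In KO, 3 of 4 (LMO1, LMO3 and LMO4) were past it, all lower, against 19.6% of 14513 genes and 8.21% as lower. Treated and untreated groups without overlap, treated lower, were found for LMO3 and LMO4 in Scr and for LMO1, LMO3 and LMO4 in KO, and for 8.53% and 8.52% of all genes. Medians of the tested members were -0.22 in Scr and -0.71 in KO, beside -0.015 and 0.018 over all genes. The family was chosen with these values known, and nothing is read from the counts. For the interaction of genotype and doxorubicin, 0 of 5 tested members passed limma's threshold, as did 0.0326% of 15325 genes. At an unadjusted p under 0.05, 1 of the 5 (LMO3, log2 difference -0.55 ± 0.23, SE) was counted, and edgeR and DESeq2 called 0. Libraries are shared between these comparisons, which are therefore not independent of each other.

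The SSBP genes, whose products bind LDB proteins, were all measured. SSBP3 had means of 178 and 179 normalized CPM in untreated KO and Scr, SSBP2 had 65.5 and 60.5, and SSBP4 had 75.4 and 71.8. SSBP4 rose with doxorubicin to 97.0 in KO and 94.1 in Scr, log2 fold changes of 0.37 ± 0.09 and 0.38 ± 0.08 (SE, limma adjusted p = 0.00578 and 0.00627). Both calls held on leaving out each library, and were lost without clone KO11 (0.31) and without clone Scr13 (0.24). The call in KO was also lost without the filter on low values (0.37). For SSBP2 and SSBP3 the log2 fold changes of all 4 comparisons lay between -0.082 and 0.11, and none passed the threshold. Between genotypes limma called 0 of the 3 SSBP genes in either treatment, with 0 at an unadjusted p under 0.05 and 0 by edgeR and DESeq2.

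Among LIM-homeodomain factors, which also bind LDB proteins, ISL1 was the abundant one. It fell with doxorubicin from 169 to 130 normalized CPM in KO (log2 fold change -0.38 ± 0.07, SE, limma adjusted p = 0.000437) and from 164 to 136 in Scr (-0.27 ± 0.08, adjusted p = 0.0363). The call in KO held on leaving out each library, and that in Scr held in 2 of 8 such fits and was lost without Scr13 untreated replicate 1 or 2, Scr13 doxorubicin replicate 1 or 2, Scr16 untreated replicate 2 or Scr16 doxorubicin replicate 2 (-0.34 to -0.20). ISL2 had group means between 6.88 and 10.7 normalized CPM, and the other 6 measured genes of the list had group means of at most 2.09 (LHX9 in untreated KO, 1.26 without KO11 untreated replicate 1). Between genotypes limma called 0 of 3 tested untreated and 0 of 2 with doxorubicin; edgeR and DESeq2 called 0 as well, and at an unadjusted p under 0.05 the counts were 0 and 1 (ISL2).

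Among the bHLH and GATA partners, which bind DNA in LMO complexes, the GATA factors and the E proteins were abundant, and the TAL and NHLH genes were near 0. GATA2 had group means between 1310 and 1457 normalized CPM, GATA3 between 638 and 807, TCF4 between 701 and 779, TCF3 between 253 and 317 and TCF12 between 193 and 238. LYL1, a bHLH factor of blood, had means of 10.2 to 11.8 normalized CPM, and TAL1, the blood partner of LMO2, had at most 3 reads in a library. NHLH1 and NHLH2, bHLH partners of LMO proteins in neurons, had group means of at most 0.75 normalized CPM. TCF3 and TCF12 fell with doxorubicin in KO (log2 fold changes -0.32 ± 0.07 and -0.29 ± 0.07, SE, limma adjusted p = 0.00153 and 0.00323). Both are E proteins, which pair with other bHLH factors. The E protein TCF4 was not called there (-0.035 ± 0.07, SE), and the TCF12 call was lost without clone KO11. In Scr with doxorubicin 0 of 6 tested bHLH and GATA partners were called by limma, edgeR or DESeq2, and 1 (TCF12) had an unadjusted p under 0.05. The interaction called 0 of 6 in each tool, with 1 (TCF3) at an unadjusted p under 0.05.

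GATA3 was higher in untreated KO than in Scr (794 against 638 normalized CPM, log2 fold change 0.32 ± 0.09, SE, limma adjusted p = 0.0344). Leaving out KO11 untreated replicate 2, KO28 untreated replicate 1 or 2, Scr13 untreated replicate 1 or Scr16 untreated replicate 1 ended that call, and it held in 3 of 8 such fits (0.24 to 0.38). TCF3 was lower in treated KO than in treated Scr (-0.26 ± 0.08, SE, adjusted p = 0.0461), a call that held in 2 of 8 fits, those without Scr13 doxorubicin replicate 1 or 2 (-0.31 to -0.19). Both values thus stood near the threshold.

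Of other proteins known to bind LMO4 or LDB1, BRCA1 and RBBP8, both DNA repair proteins, had lower reads after doxorubicin. BRCA1 fell from 135 to 90.5 normalized CPM in KO (log2 fold change -0.57 ± 0.08, SE, limma adjusted p = 4.44e-06). In Scr it fell from 142 to 110 (-0.37 ± 0.09, limma adjusted p = 0.0109). The BRCA1 call in Scr was lost at -0.30 without Scr13 doxorubicin replicate 1. It was also lost without the filter on low values and without clone Scr13 or Scr16. RBBP8 fell in KO (-0.26 ± 0.09, adjusted p = 0.0493), and that call held in 1 of 8 fits, the one without KO28 doxorubicin replicate 1 (-0.34 to -0.16). RLIM, a ubiquitin ligase of LDB proteins, had group means between 130 and 144 normalized CPM, and DEAF1, RLIM and CBFA2T2 passed no threshold. Between genotypes limma called 0 of 5 in both treatments; with doxorubicin, BRCA1 had an unadjusted p under 0.05 and was called by edgeR and DESeq2.

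Over all 4 partner lists, 27 of 32 listed genes were measured. The calls were 1 of 17 for KO against Scr untreated, 1 of 16 with doxorubicin, 3 of 17 for doxorubicin in Scr and 6 of 17 in KO. The shares of all genes called in these comparisons were 4.84%, 8.69%, 12.2% and 19.6%. Medians of the log2 fold changes were 0.013, -0.044, -0.054 and -0.035 for the lists, beside -0.0073, 0.014, -0.015 and 0.018 over all genes. For the interaction limma, edgeR and DESeq2 each called 0 of 18, and 1 (TCF3) had an unadjusted p under 0.05.

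**Figure D5:**
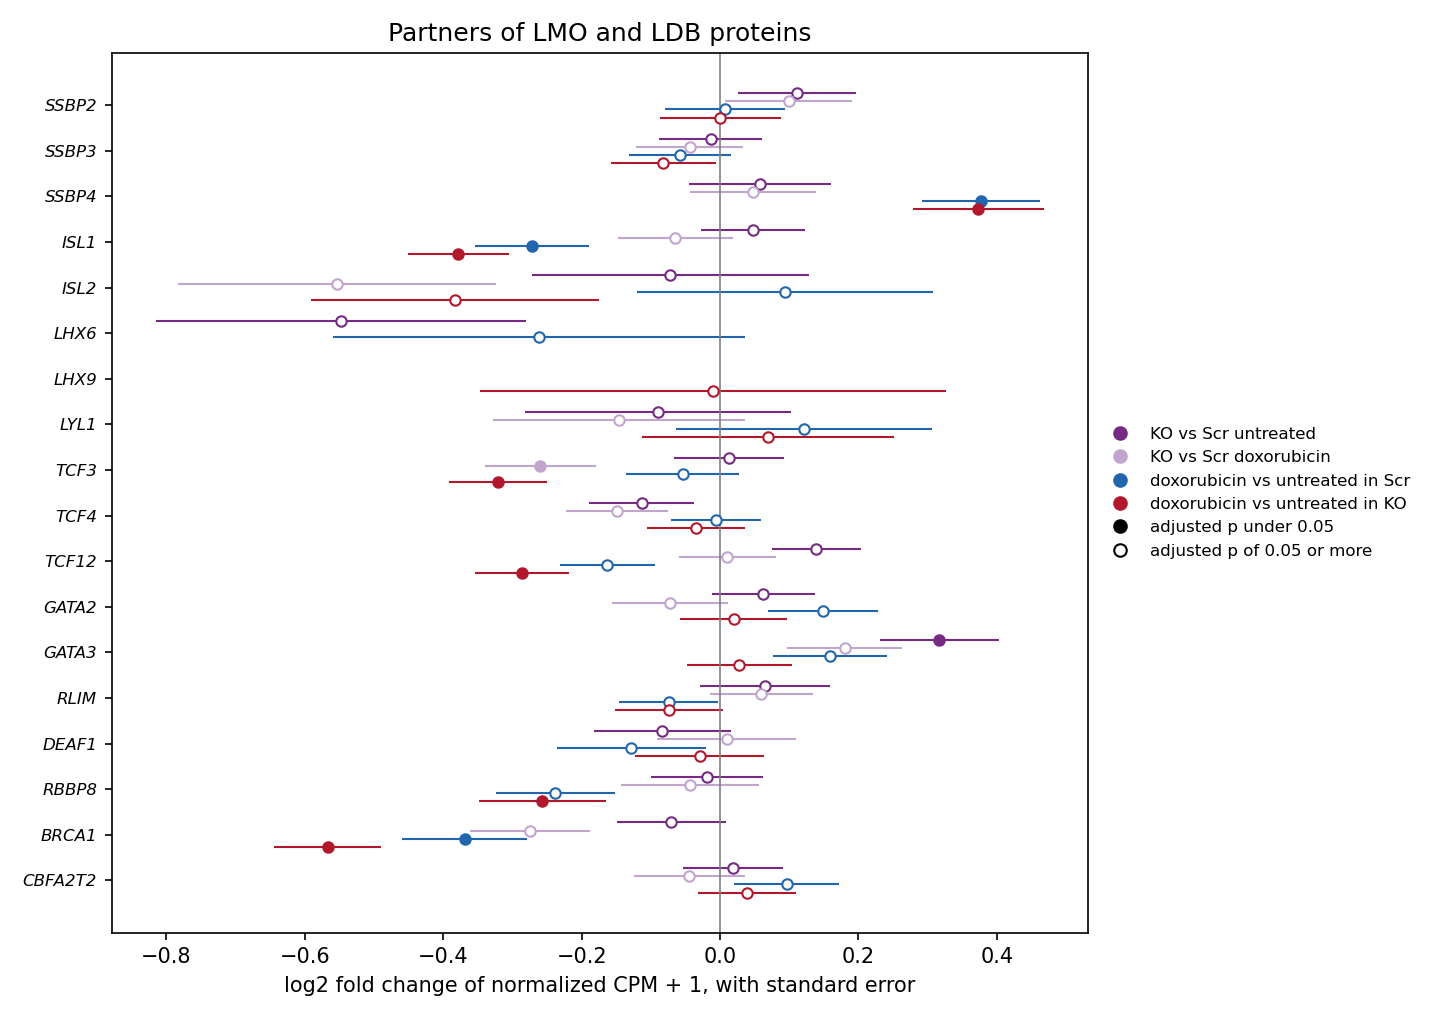
Log2 fold changes of normalized CPM + 1 with their standard errors for tested partner genes in the 4 comparisons; filled points passed the adjusted threshold of 0.05 in limma. SSBP4 lies to the right for doxorubicin in both genotypes (0.37 and 0.38), BRCA1 and ISL1 lie to the left, and most KO against Scr points are near 0.

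Other LIM-domain proteins without a homeodomain, which mostly act in the cytoskeleton or as cofactors, were measured for 9 of 11 listed genes. CSRP1, a cytoskeletal LIM protein, was lower in KO than in Scr at 13.8 against 37.0 normalized CPM untreated (log2 fold change -1.39 ± 0.16, SE, limma adjusted p = 8.25e-06) and at 18.1 against 39.3 with doxorubicin (-1.10 ± 0.15, adjusted p = 2.83e-05). Both calls held in all 8 fits without a library. LMO7, a LIM protein outside the LMO family despite its name, rose with doxorubicin in KO (0.46 ± 0.14, adjusted p = 0.0215), and that call was lost without KO28 untreated replicate 2 or KO28 doxorubicin replicate 1 (range without a library 0.31 to 0.53). FHL2 was higher in treated KO (0.69 ± 0.22, adjusted p = 0.0499), a call that held in 1 of 8 fits, the one without Scr13 doxorubicin replicate 2 (0.57 to 0.84). The other genes of this list passed no threshold in the 4 comparisons. With doxorubicin in Scr limma, edgeR and DESeq2 called 0 of 7, and 4 had an unadjusted p under 0.05.

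Protein-coding genes that start within 500 kb of a member's start were compared with it. Of 29 such genes tested for KO against Scr without treatment, limma, edgeR and DESeq2 called 0, and 4 had an unadjusted p under 0.05; with doxorubicin each called 1 of 30, CD59 near LMO2 (log2 fold change 0.33), beside 4.84% and 8.69% of all genes in limma. The neighbours tested at LMO4 were SELENOF and HS2ST1, at 414.0 and 413.8 kb before its start. They had log2 fold changes of KO over Scr of -0.043 and 0.052 untreated and 0.17 and 0.22 with doxorubicin, beside 2.92 and 2.99 for LMO4. For doxorubicin against untreated, limma called 3 of 30 neighbours in Scr (HS2ST1, OGA and NOLC1) and 7 of 29 in KO (TUB, CAPRIN1, NAT10, ABTB2, OGA, PPRC1 and NOLC1), beside 12.2% and 19.6% of all genes, and nothing is read from these counts. At LMO3 no neighbour passed the filter on low values.

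Genes whose levels varied most like a member were found by Pearson's r of log2(CPM + 1) over the 16 libraries, which share depth and the 4 groups. For LMO4 they were TEAD2 (r = 0.972), a TEAD transcription factor, ADRA2A (0.953), an adrenergic receptor, and PLXNC1 (0.949), a semaphorin receptor. TEAD2 had group means of 38.8 and 9.76 CPM in untreated KO and Scr and 22.1 and 7.21 with doxorubicin, thus also higher in KO and lower with treatment. For LMO3 they were BIRC5 (0.942), a mitotic survival protein, PAICS (0.94), an enzyme of purine synthesis, and SRSF2 (0.929), a splicing factor, all with lower means after doxorubicin. For LMO1 they were TEX261 (0.945), FARSA (0.941) and DDX56 (0.929). For LDB1 (CITED2 at 0.797, IL17RC at 0.796 and FGF5 at 0.779) and LDB2 (GSC at 0.84, then ZHX1 and CPSF2, the last at 0.82) the values were lower. CITED2, IL17RC, FGF5 and GSC were near the lower limit of the data, with group means of at most 1.68 CPM (FGF5 in treated KO). The correlations are descriptions with no test.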

How the data were processed

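Poly(A) RNA of 16 libraries was sequenced with a directional kit. The submitters' processing notes name bcl2fastq, HISAT2 2.1.0, HTSeq, edgeR and GRCh38, and the use of strand in counting is not given in the sources used here. Per library, the authors deposited a signal, normalized CPM, from which whole reads were recovered for 100% of the values (within 0.001 of a whole number, largest deviation 5.39e-05). The tables also hold the log2 fold changes, p-values and q-values of the authors' edgeR comparison and a ranking score deposited by the authors, which were not used. All 16 library columns were assigned and 0 were left over.

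KO was compared with Scr within a table with limma 3.58.1 (R 4.3.3, abundance trend) on log2(normalized CPM + 1). For doxorubicin against untreated and the interaction, the 2 tables were normalized separately, so recovered reads were scaled jointly by TMM (edgeR 4.0.16), with the clone as a fixed term. Genes with at least 1 CPM in at least 4 libraries were tested, with Benjamini-Hochberg adjustment over all of them at 0.05. The libraries of a clone were treated as replicates. For KO against Scr, p-values thus measure the spread between libraries of 2 clones per genotype. With the clone as a fixed term, p-values for doxorubicin and the interaction leave out differences in level between clones. Replicates of a clone differed beyond sampling noise (chi-square per gene 7.79 to 16.9).

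Names, exon lengths and positions came from GENCODE 29 (95.9% of identifiers matched). The members, the lists of partners and cell type markers and the rules were chosen with earlier results of these data known. Named were TRPM2, CDKN1A, the 6 members, list genes past the threshold (at most 8 per list and comparison), all SSBP genes, the 3 genes most alike to each member and protein-coding neighbours within 500 kb. GATA2, TCF4, TAL1, NHLH1, NHLH2, ISL2, RLIM, DEAF1, CBFA2T2 and single marker genes outside this rule were named after their values were seen. Alternatives were no filter, a pseudocount of 0.25, library size alone, edgeR's quasi-likelihood test and DESeq2 1.42.0 on recovered reads, a replicate block, the clone as a random block or left out of the model, and each library or clone left out. The comparison of the genotypes over the neuroblastoma markers is not reported here. The fits were tested on simulated data with the same dispersion for every gene and no difference between clones. Such data cannot check the calls against differences between clones.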

Additional observations from a re-analysis of the deposited data

Results flagged for a closer look

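The LMO4 level of 4.6 normalized CPM in Scr16 untreated replicate 2 stood apart from the other 3 untreated Scr libraries (2.64 to 2.88), with a gap to the nearest of 0.878 of the group's range. It was the single value of a member that did so, and such a gap can also arise by chance. Without this library, LMO4 remained past the threshold for KO against Scr and was no longer past it for doxorubicin in Scr.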

How the results depend on the processing

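The log2 fold change of LMO4 for KO against Scr ranged over the 19 alternatives from 2.74 to 3.26 untreated and from 2.53 to 3.78 with doxorubicin. The lower LMO3 with doxorubicin was past the threshold in 17 of 17 alternatives in KO and 16 of 17 in Scr. The family was chosen by these values, so this is a description and supports nothing. The fall of LMO4 with doxorubicin in Scr was past the threshold in 10 of 16, and without the filter on low values it was not, at -1.06. The shares of all genes past the threshold were 12.2% in Scr and 19.6% in KO. The cause of the lost calls was not tested. Of 38 fold changes of members and SSBP genes, 19 changed sign in at least 1 alternative, and none of these was among the 9 called (LDB2 untreated kept its sign in 13 of 19, SSBP2 with doxorubicin in KO in 8 of 17).

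The number of genes called moved by over 1.5 times without the filter on low values for KO against Scr untreated (368) and doxorubicin in Scr (808), where more genes were tested. With each library left out it was 508 to 678 untreated, 814 to 1314 with doxorubicin, 1057 to 1723 for doxorubicin in Scr, 2045 to 2902 in KO and 1 to 18 for the interaction. The lowest counts for KO against Scr with doxorubicin (814, from 1266) and doxorubicin in Scr (1057, from 1748) also moved by over 1.5 times. The 5 genes of the interaction (TP53I3, PLK1, SLIT1, CXCL12 and C7, named after their values were seen) became 2 without the filter, 3 with a pseudocount of 0.25, 10 with edgeR, 58 with DESeq2, 3 without a clone term and 25 with the replicate block. Replicate numbers do not pair the libraries (correlation of replicate differences between the treatments of a clone from -0.025 to 0.088, between clones of a treatment from -0.10 to 0.12), and the replicate block gave 697, 1365, 2071 and 2907 calls in the other comparisons. The levels per kb of coding length, an alternative from GENCODE added after seeing the data, were higher for all expressed members (LMO4 62.5 and 6.58 in untreated KO and Scr), and after doxorubicin in Scr they put LMO4 (2.3) above LDB2 (0.833). RefSeq coding lengths were not run. Depth limits LMO2, LDB2 and the treated Scr level of LMO4.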
